A study of Drosophila melanogaster with 18 samples.

Results

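The unplaced scaffold U of the Drosophila genome was described at the regions that DRIP-seq found there, leaving out those with a much higher level in hrp48-knockdown than in control cells before RNase H treatment. A region was kept when its mean log2 level in hrp48 RNH- libraries exceeded that in LacZ RNH- libraries by 1 or less. This left 208 of 208 U regions listed in the hrp36 table, 263 of 606 in the hrp48 table and 349 of 349 in the LacZ table. Together these were 820 of the 17192 entries of the 3 tables, or 377 of 11113 loci once overlapping entries were joined, so most loci were seen in more than 1 table. The regions were chosen by 2 measured values, the hrp48 RNH- and the LacZ RNH- means. The response of hrp36 cells to RNase H did not enter this choice, whereas the responses of hrp48 and LacZ cells each contain a value that did. Those are given as a description, and nothing is supported with them. Each table's regions are also taken as found in that group's own RNH- libraries. The listing itself thus favours falls in the table's own cells, hrp36 cells included, so the hrp36 counts are a description as well.

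DNA came from S2 cells, a Drosophila melanogaster line that began as a primary culture of late-stage embryos. The cell groups were a knockdown of hrp36, a knockdown of hrp48 and cells labelled LacZ, after a bacterial gene, which served here as the control. The 2 targets, also named Hrb87F and Hrb27C, are RNA-binding proteins of the hnRNP family. From each cell group 2 libraries carry the label RNH+ and 2 the label RNH-, taken to mean with and without RNase H, all recovered with the S9.6 antibody, and 2 libraries of input DNA were not used here. The sources used here do not give the agent, the time or the depth of the knockdown. They do not say either whether the 2 libraries of a group came from separate cultures, so a p-value covers the spread between these libraries alone, and that spread may be technical.

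S9.6 binds RNA-DNA hybrids, in which a transcript is paired with a strand of DNA, often as part of an R-loop with the other strand displaced. RNase H degrades the RNA of such a hybrid, so signal that is lower with RNH+ is the part the enzyme could remove. On the dm3 build, U joins scaffolds that could not be placed on a chromosome. Much of it is repeat-rich heterochromatin, where copies of transposable elements and other repeats lie close together and a read can have several possible places, so entries on U need not be independent loci. Neighbouring positions on U can come from different chromosomes, so distance along it is an order in the assembly and not a map. No dm3 sequence or annotation was used here, and the regions are named by position alone.

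The tables give 1 mean level per group, on a log2 scale of normalised read counts, and no value of a single library. A level therefore has no SD here, the depth of the libraries is unknown, and the error of a region is the standard error of its fold change per the authors' deposited table. That fold change is RNH+ over RNH- in the table's own cell group, and it is shrunken, by the name of the tables. Levels are normalised across libraries, so a change common to all regions cannot be read from them. The median fold change of the chromosome arm regions differed between tables, at -0.61 on the log2 scale for hrp36, 0.23 for hrp48 and -0.09 for LacZ cells, and counts are also given after these medians were subtracted.

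In hrp36-knockdown cells the S9.6 signal on U was mostly lower after RNase H. A total of 108 of the 208 regions were called lower and 6 higher by the authors' deposited table, at DESeq2's adjusted p under 0.05, which is 51.9% and 2.88%. Over all 2980 regions of that table the shares called were 44.9% lower and 5.34% higher, and the difference between U and the whole table was not tested. At an unadjusted p under 0.05 there were 136 falls and 12 rises. Regions of this table are taken as found in hrp36 RNH- libraries, which favours falls over rises in these counts. The median log2 fold change over the 208 regions was -0.89, with quartiles of -1.64 and -0.40 and a median standard error of 0.35 per the authors' deposited table. Called falls had a median size of 2.89-fold, and called rises of 2.30-fold. Centring needs a new test, a Wald test on the fold change and its standard error with Benjamini-Hochberg adjustment. Without centring that test called 125 regions lower and 11 higher, and after the arm median was subtracted it called 60 lower and 31 higher. Falls made up 65.9% of its calls after centring, against 91.9% without.

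For hrp48 cells the counts follow in part from the choice of regions. The rule left out no U region of the LacZ table, though it uses the LacZ RNH- level. Of the 343 U regions that the rule left out of the hrp48 table, 301 were called lower in hrp48 cells and 0 higher per the authors' deposited table, with 323 and 0 at an unadjusted p under 0.05 (DESeq2). Among the regions kept, 37 of 263 regions were called lower and 37 higher per the authors' deposited table, 14.1% in each direction. The whole table, which holds the regions left out, had 44.6% lower and 5.71% higher. The median log2 fold change of these regions was -0.09, with quartiles of -0.65 and 0.49. The Wald test called 40 lower and 41 higher without centring, and 69 lower and 27 higher with the arm median subtracted, so the share of falls was 71.9% after centring, against 49.4% without. In LacZ cells 44 of 349 regions were called lower and 23 higher per the authors' deposited table, or 12.6% and 6.59%, against 9.79% and 4.88% of all its regions. Their median log2 fold change was -0.15, with quartiles of -0.47 and 0.18. At an unadjusted p under 0.05 the counts were 48 lower and 45 higher in hrp48 cells, and 54 lower and 27 higher in LacZ cells.

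**Figure D1:**
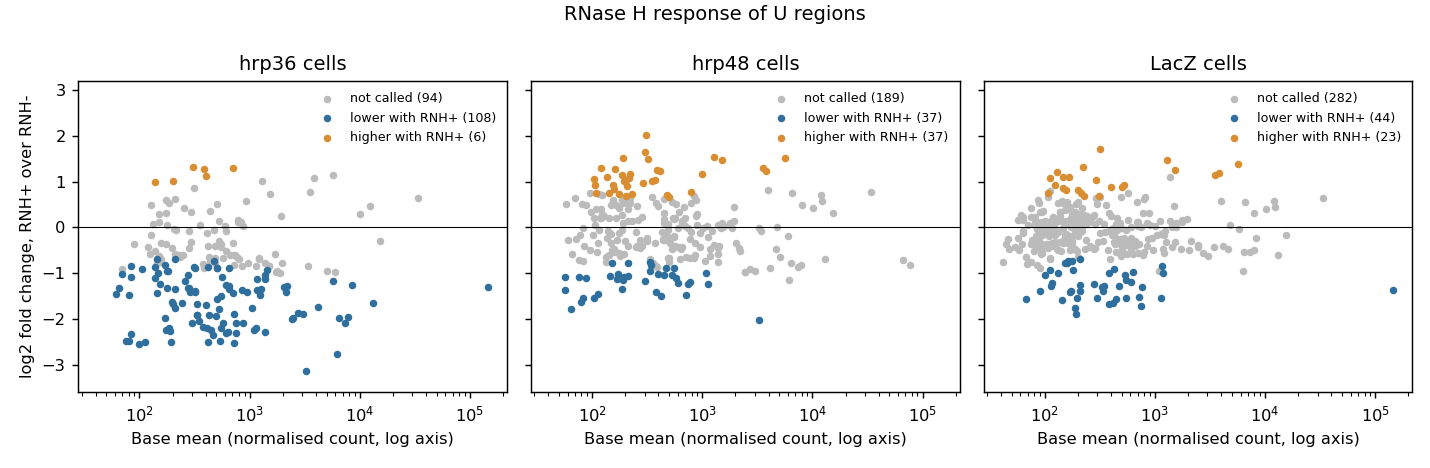
RNase H response of each U region in hrp36, hrp48 and LacZ cells: log2 fold change of RNH+ over RNH- (vertical) against the base mean, the mean normalised count over libraries (horizontal, log axis). Each point is a region of that cell group's table, blue where called lower (108, 37 and 44 regions), orange where called higher (6, 37 and 23) and grey where not called; falls in hrp36 cells are spread over the whole range of base means.

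Base mean and response had rank correlations near 0 on U. Across the 208 regions of the hrp36 table, log2 fold change and base mean had a Spearman rho of -0.05, with -0.06 across the 263 of the hrp48 table and -0.01 across the 349 of the LacZ table. Longer regions held more reads, with a rho of 0.63, 0.66 and 0.69 between length and base mean in the same order of tables. Regions of a table share their libraries and can share repeats, so these are descriptions across regions. The median base mean was 477.7 in the hrp36, 390.0 in the hrp48 and 216.5 in the LacZ table, and the median length was 754, 568 and 525 bases. The tables thus list U regions of unequal base mean and length, and a count from one is not a count of the same loci from another.

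Within a table the 6 groups are compared at common borders. In the hrp36 table the median level of U regions was 8.40 with RNH+ and 9.36 with RNH- in hrp36 cells, 8.51 and 8.74 in hrp48 cells, and 8.48 and 8.89 in LacZ cells. The RNH+ medians of the 3 cell groups lay within 0.11 of one another, and the hrp36 RNH- level was the highest of the 6. Region by region, the median difference of RNH+ minus RNH- was -0.92 in hrp36, -0.25 in hrp48 and -0.38 in LacZ cells. With the borders of the hrp48 table the medians were -0.75, -0.09 and -0.31 in the same order of cells, and with those of the LacZ table -0.24, 0.21 and -0.17. The hrp36 median was the lowest in each table as deposited. After the median of the arm regions was subtracted from each, the values were -0.30, -0.33 and -0.25 in the hrp36 table, -0.56, -0.34 and -0.17 in the hrp48 table, and -0.41, -0.29 and -0.06 in the LacZ table. On that scale the median of RNH+ minus RNH- was lower on U than on the arms in all 3 cell groups, though by only 0.06 for LacZ cells in the LacZ table. The hrp36 median was no longer the lowest in the hrp36 table. Regions on Uextra kept by the same rule were also lower than the arms, except for LacZ cells in the LacZ table. Before centring, their medians in the same order of cells were -0.84, -0.11 and -0.26 in the hrp36 table. They were -0.66, -0.01 and -0.17 in the hrp48 table, and -0.36, 0.22 and -0.05 in the LacZ table. A median below that of the arms is thus not particular to U. These are differences of group means and carry no test.

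In the hrp36 and hrp48 tables, U levels of hrp36 and LacZ cells lay further apart with RNH- than with RNH+. With RNH-, the level in hrp36 cells exceeded that in LacZ cells by a median of 0.52 over the regions of the hrp36 table, and it was higher at 189 and lower at 19 of them. The arm regions of the same table gave 0.40, which leaves 0.13 for U after centring. With the borders of the hrp48 table the median was 0.34 on U and -0.13 on the arms, and with those of the LacZ table it was 0.07 on U and -0.31 on the arms. Uextra regions had higher RNH- medians than U in each table, at 0.56, 0.41 and 0.27 in the hrp36, hrp48 and LacZ tables. With RNH+ the difference of hrp36 minus LacZ on U had medians of -0.07, -0.04 and -0.02 in the hrp36, hrp48 and LacZ tables. For hrp48 minus LacZ with RNH+ the medians were -0.01, 0.01 and 0.09. All but the hrp36 minus LacZ median of the LacZ table turned sign when the arm median was subtracted, so no direction is drawn from the RNH+ medians. The LacZ RNH- mean was used in the choice of regions, and each table favours regions whose own RNH- signal was high.

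At 25 regions of the hrp36 table the RNH- level in hrp36 cells was more than 1 log2 unit above that in LacZ cells, a border taken after the values were seen. All 25 were called lower with RNH+ in hrp36 cells, with log2 fold changes from -3.13 to -1.41 per the authors' deposited table, and the Wald test called all 25 lower without centring and 22 after the arm median was subtracted. A high hrp36 RNH- level is itself 1 side of that fold change, so the count adds no separate evidence. With RNH+ the same 25 regions had a median of -0.24 for hrp36 minus LacZ, and the differences ran from -1.42 to 0.000773. In the hrp48 table there were 24 such regions, of which 6 were called lower with RNH+ in hrp48 cells per the authors' deposited table, and by the Wald test 7 without centring and 14 with it. The LacZ table held 17 of them, and 0 were called in LacZ cells per the authors' deposited table from DESeq2, with 1 lower at an unadjusted p under 0.05. U thus had 25 of 208, 24 of 263 and 17 of 349 regions above this border in the hrp36, hrp48 and LacZ tables. Uextra had 378 of 2108, 332 of 2302 and 166 of 2028, and the arms 55 of 519, 67 of 1180 and 69 of 3632. In each table the share on U was below that of Uextra and above that of the arms, and these differences were not tested. Such regions are therefore not particular to U.

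The largest fall of hrp36 cells on U was at U:10033741-10034121, a region of 381 bases. Its group means were 9.41 with RNH+ and 13.12 with RNH- in hrp36 cells, 9.46 and 11.84 in hrp48 cells, and 9.6 and 11.62 in LacZ cells. The RNH+ means of the 3 cell groups lay within 0.19 of one another, while the hrp36 RNH- mean stood 1.5 above that of LacZ cells. Its log2 fold change in hrp36 cells was -3.13 (SE 0.47, adjusted p 3.21e-09, DESeq2) per the authors' deposited table, a fall of 8.76-fold. The overlapping hrp48 entry, U:10033742-10033965, was also the largest fall of hrp48 cells, at -2.01 (SE 0.47, adjusted p 0.000773) per the authors' deposited table. The LacZ table lists no member of this locus, although RNH+ minus RNH- was -2.02 in LacZ cells at the hrp36 borders.

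U:444353-445617 was next in hrp36 cells, with 10.82 with RNH+ and 13.85 with RNH- against 11.08 and 12.37 in LacZ cells. Its log2 fold change was -2.77 (SE 0.51, adjusted p 1.72e-06, DESeq2) per the authors' deposited table. In hrp48 cells the overlapping entry had -1.15 (SE 0.51, adjusted p 0.0584) per the authors' deposited table, and in LacZ cells -0.96 (SE 0.51, adjusted p 0.126), so neither was called. The other leading falls of hrp36 cells were taken among called regions whose base mean reached the median of the U regions. These, at U:8468676-8469375, U:9693228-9693720 and U:9073953-9074812, had log2 fold changes of -2.53, -2.48 and -2.32 per the authors' deposited table. Those 3 loci were also called lower in both other cell groups. Some regions of lower base mean fell further, such as U:9602235-9603160 at -2.54 with a base mean of 99.1.

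Only 1 rise in hrp36 cells had a base mean no lower than the median of the U regions. This was U:9823173-9825220, of 2048 bases, with 9.82 with RNH+ and 8.60 with RNH- in hrp36 cells, 9.18 and 7.20 in hrp48 cells, and 10.06 and 7.63 in LacZ cells. The RNH+ mean was above the RNH- mean in each cell group, by 1.22, 1.98 and 2.43. The log2 fold change in hrp36 cells was 1.30 (SE 0.47, adjusted p 0.0268, DESeq2) per the authors' deposited table. No member of the hrp48 or LacZ table lay at this position.

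Position along U had a rank correlation below 0 with the response in each cell group. Spearman's rho between position and log2 fold change was -0.12 across the hrp36, -0.32 across the hrp48 and -0.23 across the LacZ regions, and the differences between these were not tested. In windows of 1 Mb the share of falls in hrp48 and LacZ cells was highest in the last windows. A border at 8 Mb, chosen after the values were seen, was used for counts, and differences between its sides were not tested. In hrp48 cells 31 of 112 regions beyond 8 Mb were called lower and 5 higher per the authors' deposited table, against 6 lower and 32 higher of the 151 before it. The Wald test gave 31 and 6 beyond the border and 9 and 35 before it without centring, and 43 and 5 beyond it and 26 and 22 before it with centring, so the majority of rises in the first 8 Mb depended on the scale. In LacZ cells 30 of 112 regions beyond 8 Mb were lower and 6 higher per the authors' deposited table, against 14 and 17 of 237 before it. By the Wald test these were 23 and 3, against 10 and 10, without centring, and 22 and 4, against 8 and 13, with it.

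**Figure D2:**
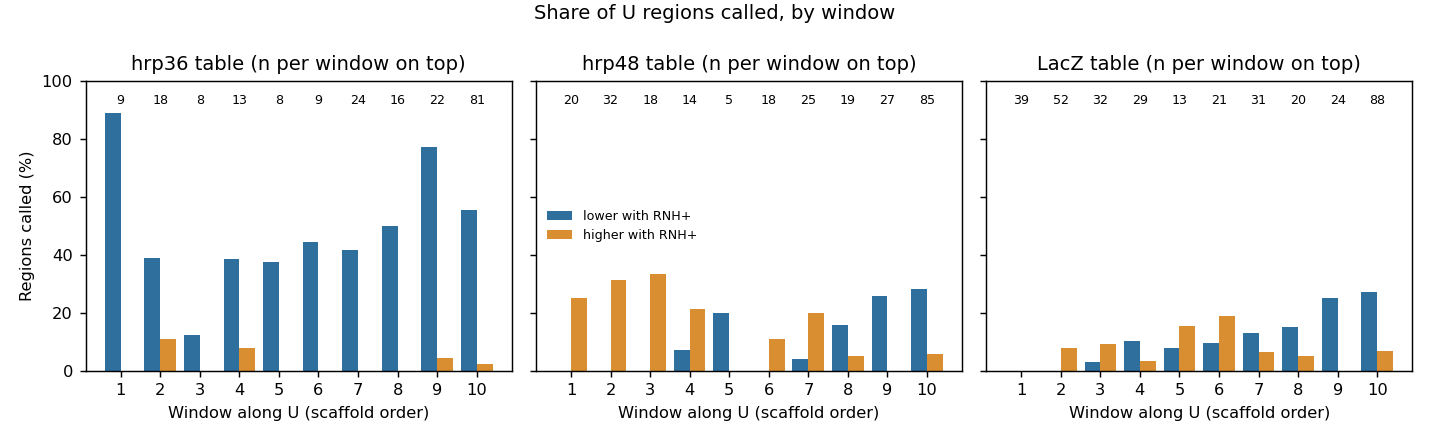
Share of U regions called lower (blue) or higher (orange) with RNH+ in windows of 1 Mb along the scaffold, in per cent, for the hrp36, hrp48 and LacZ tables; the number of regions in each window stands above the bars, and window 10 runs to the end of U. In the hrp36 table falls occur in every window, with 8 of 9 regions in window 1 and 17 of 22 in window 9, while in the hrp48 table windows 1 to 3 hold rises alone.

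In hrp36 cells falls were found on both sides of that border, at 62 of 103 regions beyond 8 Mb and at 46 of 105 before it, each with 3 rises, per the authors' deposited table. The Wald test gave 68 falls and 4 rises beyond the border, against 57 and 7 before it, without centring. With centring it gave 40 falls and 10 rises beyond the border, against 20 falls and 21 rises before it, so the excess of falls in the first 8 Mb also depended on the scale. The first window held unlike regions in the 3 tables. It had 9 in the hrp36 table, with a median base mean of 3030 and a median log2 fold change of -1.96. Of these, 8 were called lower, where 44.9% of all regions of that table were. They include both pairs of a long and a short neighbour described below, whose counts may rest on the same reads, so the 8 need not be separate loci. Of the LacZ regions, 39 lay in the same window, with a median base mean of 164.1, and 0 were called in either direction by DESeq2, where an unadjusted p under 0.05 gave 3 falls and 3 rises. Of the 20 regions that the hrp48 table lists there, 5 were called higher and 0 lower, with 6 rises and 4 falls without adjustment.

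How levels changed along U depended on the table. With the borders of the LacZ table, the median RNH- level beyond 8 Mb was 9.11 in hrp36, 8.35 in hrp48 and 8.67 in LacZ cells, against 7.47, 7.21 and 7.55 in the first 8 Mb. The corresponding RNH+ medians were 7.75, 7.92 and 7.85 beyond the border, against 7.68, 7.85 and 7.63 before it. At these borders the far end of U was thus higher with RNH- in all 3 cell groups and nearly level with RNH+. In the hrp36 table the RNH- medians beyond 8 Mb were 9.29 in hrp36, 8.68 in hrp48 and 8.80 in LacZ cells, against 9.44, 8.89 and 8.97 before it, and the RNH+ medians 7.91, 7.98 and 8.08, against 8.81, 8.91 and 8.88. There the far end was lower with RNH- and with RNH+, and more so with RNH+. In the hrp48 table the RNH- medians were 9.31, 8.56 and 8.80 beyond the border, against 8.73, 8.16 and 8.55 before it, and the RNH+ medians 7.92, 7.96 and 8.01, against 8.60, 8.53 and 8.47, so the far end was higher with RNH- and lower with RNH+. The difference of hrp36 minus LacZ with RNH- had a median of 0.50 beyond 8 Mb and -0.14 before it in the LacZ table. In the hrp36 table the 2 medians were 0.60 and 0.49. Levels are counts per region and are not scaled by length. Regions beyond 8 Mb had median lengths of 637, 522.5 and 481 bases in the hrp36, hrp48 and LacZ tables. Before it the median lengths were 888, 587 and 553 bases. How far length enters the levels along U was not tested.

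**Figure D3:**
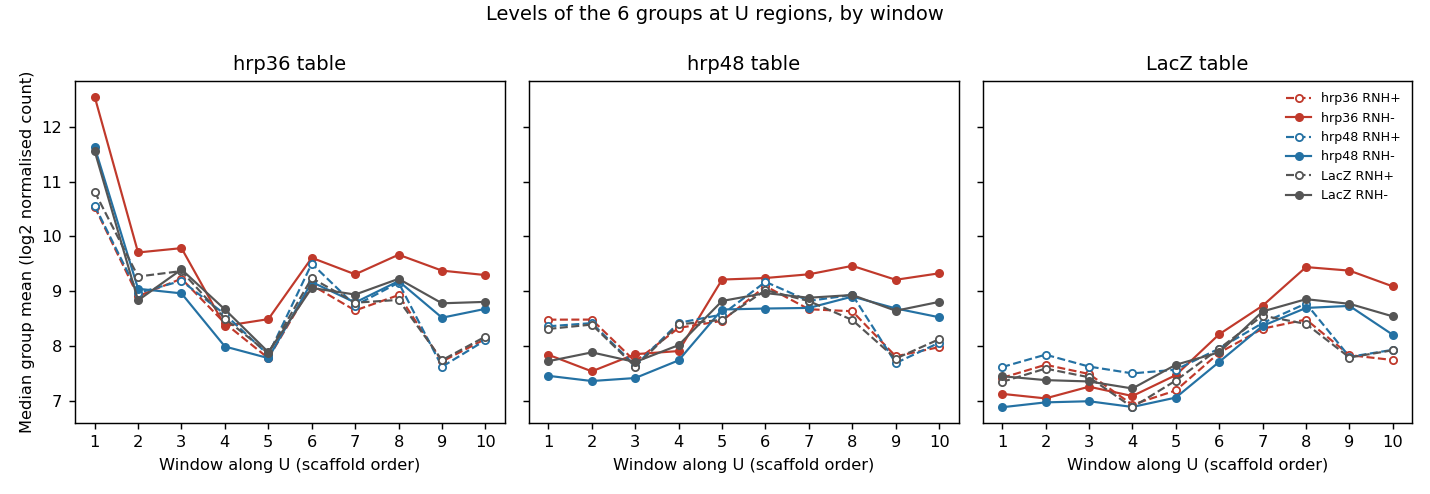
Median group mean of U regions (log2 normalised count) in windows of 1 Mb along the scaffold, for the hrp36, hrp48 and LacZ tables; filled points and solid lines are RNH-, open points and dashed lines RNH+, in red for hrp36, blue for hrp48 and grey for LacZ cells. From window 7 on the hrp36 RNH- line is the highest in each panel, and the RNH+ lines of the 3 cell groups stay close together.

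A total of 167 loci were listed in all 3 tables, and 26 of them were called lower in all 3 cell groups and 3 higher in all 3, per the authors' deposited tables. Of the 26, 20 lay beyond 8 Mb, where 81 of the 167 loci lie. A further 50 loci were called lower in hrp36 cells and in neither other group, and 62 had no call in any. The same shares over loci of the whole genome listed in all 3 tables were not computed, so these counts are not read as a trait of U. Over the 167 loci, whose borders in the LacZ table were used for levels, the median difference of RNH+ minus RNH- was -0.95 in hrp36, -0.35 in hrp48 and -0.41 in LacZ cells. At the 26 shared falls the median levels were 7.30 with RNH+ and 9.44 with RNH- in hrp36 cells, 7.61 and 8.70 in hrp48 cells, and 7.28 and 8.83 in LacZ cells.

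The median log2 fold change of the 26 shared falls was -2.19 in hrp36, -1.10 in hrp48 and -1.41 in LacZ cells per the authors' deposited tables. The hrp36 value was the most negative of the 3 at 25 of the 26 loci, and the hrp48 value the least negative at 24. With each table centred on its arm median, the medians were -1.58, -1.33 and -1.32, and hrp36 was the most negative at 15 loci, hrp48 at 4 and LacZ at 7. The order of the 3 cell groups at these loci therefore depended on the scale.

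The locus with the smallest of the largest adjusted p-values was U:9794359-9794985. Its levels were 6.23 with RNH+ and 8.50 with RNH- in hrp36 cells, 6.46 and 7.94 in hrp48 cells, and 6.13 and 8.0 in LacZ cells. RNH+ minus RNH- was -2.27, -1.48 and -1.87, and the RNH+ means of the 3 cell groups lay below all 3 RNH- means. The log2 fold changes per the authors' deposited tables were -2.19 (SE 0.30, adjusted p 1.63e-10), -1.35 (SE 0.30, adjusted p 0.00041) and -1.76 (SE 0.31, adjusted p 1.75e-06) in hrp36, hrp48 and LacZ cells (DESeq2). U:9820204-9820603 followed, with -2.26, -1.16 and -1.90 per the authors' deposited tables. Its RNH+ means were 6.09, 6.74 and 6.16 and its RNH- means 8.44, 7.96 and 8.16 in the same order of cells.

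U:8022559-8023301, U:9753909-9754954, U:9515505-9516080, U:8468681-8469362 and U:9290770-9291240 came next, then U:4397517-4397857, U:8550234-8550500 and U:3175560-3176381. Across all 10 loci the log2 fold changes ran from -2.53 to -1.77 in hrp36, from -1.49 to -1.07 in hrp48 and from -1.90 to -1.40 in LacZ cells per the authors' deposited tables. U:9515505-9516080, for example, had 7.29 with RNH+ and 9.93 with RNH- in hrp36 cells, 7.19 and 8.85 in hrp48 cells, and 7.01 and 8.93 in LacZ cells. Its hrp36 RNH- mean was 0.995 above that of LacZ cells, whereas at U:9753909-9754954 the same difference was 0.29. The 10 loci were spread over base means from 169.5 to 1139.

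**Figure D4:**
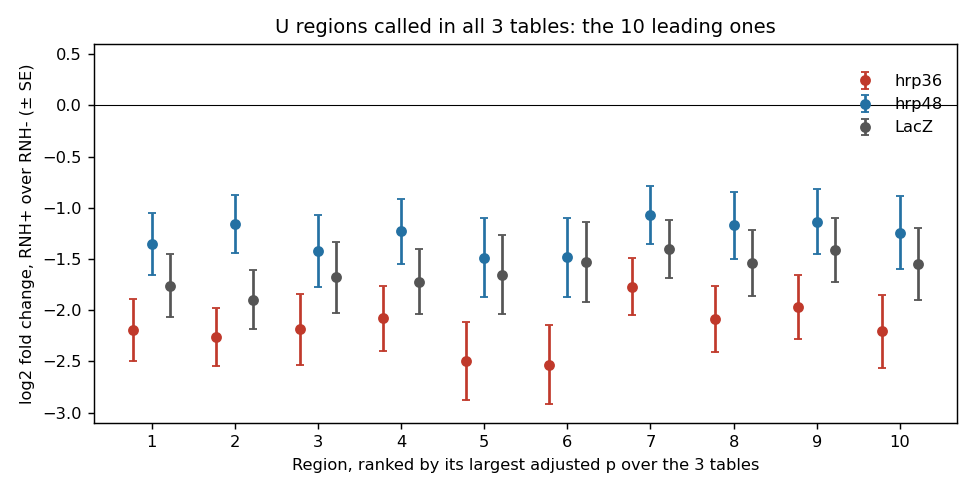
Log2 fold change of RNH+ over RNH- with its standard error in hrp36 (red), hrp48 (blue) and LacZ cells (grey) at the 10 U loci called in all 3 tables whose largest adjusted p is smallest, ranked by that p; rank 1 is U:9794359-9794985. All values are below 0, and the hrp36 value is the lowest of each locus before centring.

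The 3 loci called higher in all cell groups were U:1982877-1983331, U:9487622-9488081 and U:1263610-1264195. U:9487622-9488081 had 8.71 with RNH+ and 7.22 with RNH- in hrp36 cells, 8.35 and 6.59 in hrp48 cells, and 8.77 and 6.81 in LacZ cells. Per the authors' deposited tables its log2 fold changes were 1.27 (SE 0.39), 1.49 (SE 0.40) and 1.72 (SE 0.41). At U:1263610-1264195 they were 1.32, 1.65 and 0.69 per the authors' deposited tables, with adjusted p-values of 5.24e-05, 4.11e-06 and 0.0409 (DESeq2). RNH+ means exceeded RNH- means in every cell group at these 3 loci, by 0.72 to 1.97.

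Leading rises and falls of hrp48 and LacZ cells were taken among called regions whose base mean reached the median of the table's U regions. Some regions of lower base mean had larger changes. Over all U regions the highest log2 fold change of hrp48 cells was 2.01 per the authors' deposited table. Of the 5 leading rises of hrp48 and of LacZ cells, 3 overlapped. The 5 leading rises of hrp48 cells were U:9991571-9992102, U:2190476-2199561, U:2184477-2185296, U:9463101-9464121 and U:1982922-1983358, with log2 fold changes from 1.25 to 1.54 per the authors' deposited table. Those of LacZ cells were U:9487622-9488081, U:9991568-9992102, U:2190491-2199571, U:4571236-4571907 and U:2184475-2185351, from 1.27 to 1.72 per the authors' deposited table. The region at U:2190491-2199571 is 9081 bases long, with 13.00 with RNH+ and 11.47 with RNH- in hrp36 cells, 13.15 and 11.34 in hrp48 cells, and 12.84 and 11.16 in LacZ cells. Its neighbour U:2184475-2185351 had 10.92 and 9.99, 11.14 and 9.51, and 10.96 and 9.51 in the same order. In hrp36 cells the overlapping entries of both had log2 fold changes of 1.14 (SE 0.48, adjusted p 0.0512) and 0.74 (SE 0.42, adjusted p 0.166) per the authors' deposited table, and neither was called.

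Leading falls of hrp48 and LacZ cells, under the same base mean filter, overlapped at 3 loci as well. Over all U regions the lowest log2 fold change of LacZ cells was -1.90 per the authors' deposited table. Besides U:10033742-10033965, the leading falls of hrp48 cells were U:9515502-9516081, U:8468676-8469365, U:3175561-3176381 and U:9753911-9754942, from -1.49 to -1.23 per the authors' deposited table. In LacZ cells they were U:9753909-9754954, U:8022559-8023301, U:9515505-9516080, U:9465966-9466679 and U:3175560-3176381, from -1.72 to -1.55 per the authors' deposited table. All 5 LacZ loci were among the 26 called lower in all cell groups. U:9465966-9466679 had 7.43 with RNH+ and 9.78 with RNH- in hrp36 cells, 7.89 and 8.99 in hrp48 cells, and 7.45 and 9.14 in LacZ cells.

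Matched entries of a pair of tables were compared for direct calls. The hrp36 and LacZ tables shared 181 U entries, which is 87.0% of the hrp36 and 51.9% of the LacZ regions, and 36 of them were lower in both and 3 higher in both. The hrp48 and LacZ tables shared 224, or 85.2% and 64.2%, with 28 lower in both and 13 higher in both. The hrp48 and hrp36 tables shared 182, or 69.2% and 87.5%, with 34 and 3. Opposite calls were made at 0 entries of each pair. Regions that overlapped no kept U region of another table numbered 11 in the hrp36, 16 in the hrp48 and 102 in the LacZ table. The last were shallow, with a median base mean of 116.1 against 426.9 for the other LacZ regions. Over the whole genome the same pairs of tables shared 2165, 3187 and 2363 entries. Common calls, opposite calls and unmatched regions were not counted there, so the U counts are not read as a trait of U.

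The size of the response was then tested between hrp36 and LacZ cells, in whose tables the rule left out no U region, by a Wald statistic on both fold changes and standard errors, with Benjamini-Hochberg adjustment over all matched regions of the genome. Of the 181 matched U entries, 0 differed at an adjusted p under 0.05, where 0.0924% of all 2165 matched regions did. At an unadjusted p under 0.05 there were 30 of the 181, of which 29 were lower in hrp36 cells. Over all 2165 matched regions there were 337, so no trait of U is drawn from this count. The median difference was -0.56 (median standard error 0.50) and negative at 152 entries, but -0.04 after both tables were centred on their arm medians. A difference that misses the threshold at standard errors of this size does not show that both responded alike. Differences with the hrp48 response hold the hrp48 RNH- level that the rule bounds, so they are given with no test. The median of hrp48 minus LacZ cells over 224 matched entries was 0.20, and -0.12 after centring. The median of hrp48 minus hrp36 cells over 182 was 0.77, and -0.08 after centring.

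The smallest adjusted p of this test on U belonged to U:1041854-1042944, which was also the region nearest to the border of the rule among those kept. Its levels were 8.69 with RNH+ and 11.89 with RNH- in hrp36 cells, 8.60 and 9.53 in hrp48 cells, and 10.11 and 8.57 in LacZ cells. It was lower with RNH+ in both knockdowns and higher with RNH+ in LacZ cells, and its hrp36 RNH- mean was 3.32 above that of LacZ cells. The log2 fold change was -2.29 (SE 0.61, adjusted p 0.000904, DESeq2) in hrp36, -0.75 (SE 0.61, adjusted p 0.377) in hrp48 and 1.10 (SE 0.61, adjusted p 0.181) in LacZ cells per the authors' deposited tables. The difference of hrp36 minus LacZ was -3.39 (SE 0.86, adjusted p 0.0593, Wald test with Benjamini-Hochberg adjustment over the regions of both tables). The hrp48 excess of this region was 0.97, and the rule itself used its LacZ RNH- level.

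Few regions lay near the border. Just inside, after U:1041854-1042944, came U:9773668-9774539 in the hrp48 table with an excess of 0.56 and U:9934510-9934966 with 0.52. U:8365118-8365991 had 0.46 in the hrp36 table and U:5583503-5583912 had 0.40 in the LacZ table. U regions beyond the border were listed in the hrp48 table alone, and the nearest were U:7859656-7861513 with 1.01, U:6714384-6715693 with 1.18 and U:8251992-8253564 with 1.32. The first of these had 7.86 with RNH+ and 8.90 with RNH- in hrp48 cells, 8.11 and 9.16 in hrp36 cells, and 8.23 and 7.89 in LacZ cells. Its LacZ mean was thus higher with RNH+, as at U:1041854-1042944.

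The region of U with the highest base mean lay at U:5288444-5303493 by the borders of the LacZ table. It was 15050 bases long and had a base mean of 144969, a count that is not scaled by length. Its length and profile resembled those of mitochondrial DNA, which the LacZ table lists from 50 to 15005 with a base mean of 192841. The mitochondrial mean was higher by 0.36 to 0.44 in each of the 6 groups. U was at 16.08 with RNH+ and 17.50 with RNH- in hrp36 cells, 16.72 and 17.57 in hrp48 cells, and 16.00 and 17.55 in LacZ cells. Mitochondrial DNA was at 16.44 and 17.94, 17.10 and 17.99, and 16.39 and 17.95 in the same order.

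Once the mean difference was removed, the 6 means of this U region departed from the mitochondrial ones by at most 0.04, where the next closest U region of the LacZ table departed by 0.20. The log2 fold changes per the authors' deposited tables were -1.29 on U (SE 0.36, adjusted p 0.00191, DESeq2) and -1.37 on mitochondrial DNA (SE 0.35, adjusted p 0.000651) in hrp36 cells. They were -1.36 (SE 0.36, adjusted p 0.00118) and -1.39 (SE 0.35, adjusted p 0.000731) in LacZ cells. The hrp48 table splits the U region into entries of 9147 and 5695 bases, with -0.81 and -0.71 per the authors' deposited table, against -0.82 on mitochondrial DNA, and none of the 3 was called. Whether both places share reads was not tested.

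The next regions by base mean behaved in other ways. U:1941227-1942121, of 895 bases, had 15.29 with RNH+ and 14.43 with RNH- in hrp36 cells, 15.52 and 14.62 in hrp48 cells, and 15.07 and 14.37 in LacZ cells. The RNH+ mean was the higher in each cell group by 0.70 to 0.89, and the locus was called in none of them (log2 fold change 0.63, SE 0.48, adjusted p 0.315 in hrp36 cells per the authors' deposited table, DESeq2). U:9692027-9692510 and U:7934122-7934909 were not called in hrp36 cells either, at -0.29 and 0.48 per the authors' deposited table. U:1880945-1887048, of 6104 bases, was lower in hrp36 cells at -1.65 (SE 0.44, adjusted p 0.00159) per the authors' deposited table. In hrp48 and LacZ cells its entries had -0.70 (SE 0.44, adjusted p 0.197) and -0.60 (SE 0.44, adjusted p 0.323) per the authors' deposited tables.

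Regions of 4 kb or more were mostly called lower in hrp36 cells, and differences between the tables were not tested. Of the 8 in the hrp36 table, 7 were called lower and 0 higher per the authors' deposited table, against 0 lower and 1 higher of 7 in the hrp48 table and 1 lower and 1 higher of 7 in the LacZ table. At an unadjusted p under 0.05 (DESeq2) they were 7 and 1, 1 and 1, and 1 and 1. The Wald test gave 7 and 1 in the hrp36, 0 and 1 in the hrp48 and 1 and 1 in the LacZ table without centring, and 4 and 1, 3 and 1, and 1 and 1 with it. After centring, hrp36 and hrp48 cells thus had nearly equal counts. The cut at 4 kb was set after the values were seen. The called LacZ fall among them was U:5288444-5303493. The exception in hrp36 cells was the entry at U:2190482-2199630, which had higher means with RNH+ in all cell groups. The 7 falls of hrp36 cells include U:5288409-5303481 and the long regions of both pairs described next. The counts of those pairs may rest on the same reads, so the 7 need not be separate loci. Calls among regions of this length elsewhere in the genome were not counted, so the counts are not read as a trait of U.

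Among the long regions a pattern of a long and a short neighbour occurred at 2 places with nearly equal values. At the first, U:276286-281021 of 4736 bases was followed after 260 bases by U:281282-282492 of 1211 bases. At the second, U:977406-982701 of 5296 bases was followed after 521 bases by U:983223-984461 of 1239 bases. The long regions had 11.70 and 11.89 with RNH+ and 13.91 and 13.96 with RNH- in hrp36 cells, 11.56 and 11.74 with RNH+ and 12.60 and 12.73 with RNH- in hrp48 cells, and 11.94 and 12.12 with RNH+ and 12.67 and 12.82 with RNH- in LacZ cells. The short ones had 10.17 and 10.24 with RNH+ and 12.31 and 12.32 with RNH- in hrp36 cells. Both places thus matched each other within 0.19 in each of these groups.

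All 4 regions were called lower in hrp36 cells, with log2 fold changes from -2.08 to -1.96 and adjusted p-values from 0.000164 to 0.000668 per the authors' deposited table (DESeq2). In hrp48 cells they had -0.98 to -0.82 and in LacZ cells -0.54 to -0.38 per the authors' deposited tables, and none was called. The RNH- mean of the first long region was 13.91 in hrp36 cells, against 12.67 in LacZ cells. Whether the 4 regions are copies of a repeat was not tested, and their counts may rest on the same reads.

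**Figure D5:**
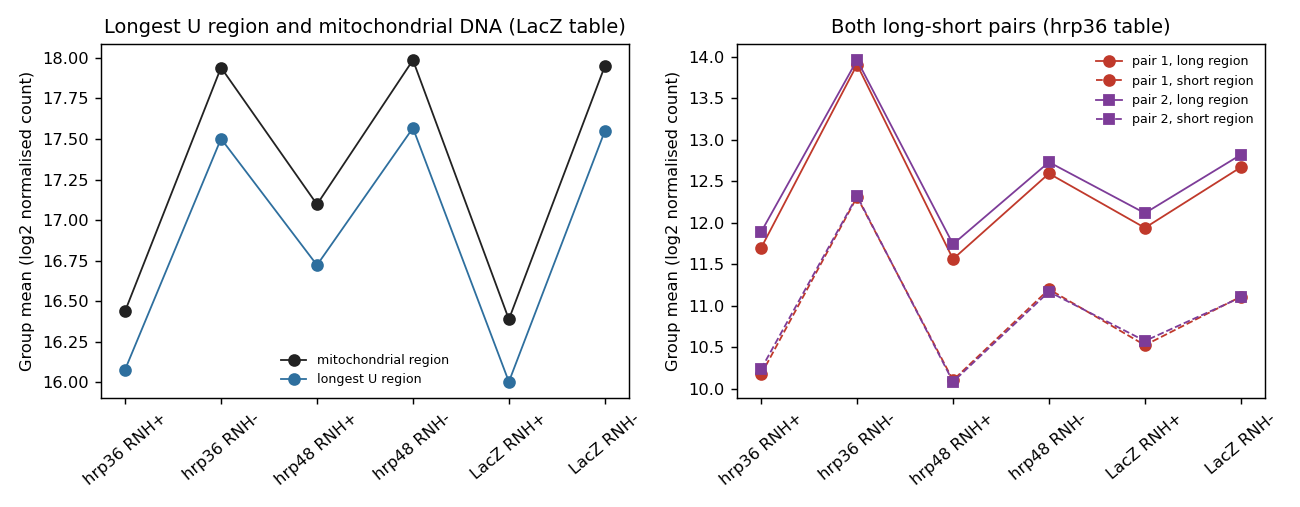
Group means (log2 normalised count) of the longest U region and of mitochondrial DNA in the LacZ table (left), and of the 2 places with a long and a short neighbour in the hrp36 table (right), over the 6 groups. Each line joins the means of 1 region; on the left the lines run 0.36 to 0.44 apart, and on the right the lines of pair 1 and pair 2 nearly coincide.

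Some regions lay close together. Joining regions less than 5 kb apart gave 160 runs in the hrp36, 189 in the hrp48 and 242 in the LacZ table, of which 35, 45 and 68 held 2 or more regions (83, 119 and 175 regions in all). Runs with calls in both directions were 1, 2 and 2 in number. The run with the most members in the hrp36 table, at U:9453452-9466690, held 5 regions with log2 fold changes from -2.25 to 0.77 per the authors' deposited table, 2 of them called lower. In the LacZ table the fullest run held 7 regions at U:9667381-9681776, and 1 was called.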

How the data were processed

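DRIP-seq values came from 3 tables, 1 per cell group, that the authors deposited. The submitters' processing notes name dm3, Bowtie2 2.2.2, MACS 1.4.2 and DESeq2; the sources used here do not give their order, the handling of reads with several places or how peaks were called. Region names in each table end in Un, so regions are taken as found in that group's RNH- libraries. The authors deposited 6 log2 group means per region, read here as means of log2(normalised count + 1), with Tr read as RNH+ and Un as RNH-. They also deposited the base mean, a normalised signal per region over libraries, a shrunken log2 fold change with its standard error, a Wald score, a call score and p-values, with adjusted p-values. Back-transformed, the group means averaged at or below the base mean in every region. A mean of logs gives this with other added constants too, so the form of the group means was not settled. The deposited calls follow an adjusted p under 0.1. Benjamini-Hochberg values recomputed from the listed p-values differed from the deposited one by up to 0.138 in the LacZ table. No per-library column was used, 0 per-sample columns stayed unmapped, and the 6 input libraries were not used here, so depth is unknown and no counting interval is given.

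Calls were counted at the deposited adjusted p under 0.05. Centred counts come from a Wald test on the centred fold change and the deposited standard error, and the same test without centring is given beside them. Tables were matched by at least 1 base, keeping mutually best pairs. Differences of response were tested with a two-sided Wald statistic (normal approximation), adjusted by Benjamini-Hochberg over all matched regions, and the test was tested on simulated data. Named regions are, per table, the 5 largest falls and rises among called members whose base mean reaches the median of the members, the 5 of highest base mean, up to 10 called alike in all tables, and 3 on either side of the border. The hrp48 differences were tested as designed, but are given without the test because they hold a level the rule bounds. The members, lists and tests were chosen with earlier results of these data known. Alternatives tried were a looser and a stricter threshold, a minimum fold change, a base mean filter, another adjustment, centring on the arm median, other rule borders, 1 region per run and a reciprocal overlap of 50%. The pairs, long regions, 8 Mb border and hrp36-raised set were defined after the values were seen. The work was done in Python 3.11.15 with pandas 2.3.3, NumPy 2.4.6, Matplotlib 3.10.9 and SciPy 1.17.1.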

Additional observations from a re-analysis of the deposited data

How the results depend on the processing

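Of the values recomputed for the response counts, the difference tests and the level medians, 57 kept their direction and stayed within 1.5 times the reported count or median, 19 moved further and 5 turned sign. The 26 leading calls of single regions kept their direction and side of the threshold under both alternatives run on each (52 values). The medians that turned sign were RNH+ medians with centring: hrp36 minus LacZ was 0.020 and 0.0070 in the hrp36 and hrp48 tables, in place of -0.07 and -0.04, and hrp48 minus LacZ was 0.052, -0.0099 and -0.0031 in the hrp36, hrp48 and LacZ tables, in place of -0.01, 0.01 and 0.09. Centring also turned the medians of the differences of response for hrp48 minus LacZ and hrp48 minus hrp36, as given with those values. Counts of falls in hrp36 cells were 69 among regions whose base mean reached the table's median and 60 centred on the arm median, in place of 108. Rises in hrp36 cells numbered 12 at an adjusted p under 0.1, 3 under 0.01, 3 with the base mean filter, 11 with the adjustment over listed regions and 31 centred, in place of 6. In hrp48 cells falls numbered 21 under 0.01 and 69 centred, and rises 22 under 0.01 and 24 with an absolute log2 fold change of at least 1, in place of 37 each. In LacZ cells rises numbered 10 under 0.01, 12 with that minimum, 15 with the base mean filter and 13 with the adjustment over listed regions, in place of 23. The difference of hrp36 minus LacZ gave 1 U entry at an adjusted p under 0.1 in place of 0. The median RNH- difference of hrp36 minus LacZ in the hrp36 table was 0.13 centred, in place of 0.52, and it was 0.37 in the LacZ table, in place of 0.07. The RNH+ median of the same difference in the LacZ table was -0.046 centred, in place of -0.02. Centred counts come from a Wald test that without centring gave 125 falls and 11 rises in hrp36 cells and 40 falls in hrp48 cells. Fewer regions enter under a stricter threshold or filter; for the other changes the cause was not tested. No paired analysis was possible because the columns hold group means and carry no replicate, and the replicate block and leaving out each replicate were for the same reason not run.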

Other observations

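U:2952222-2952599, chosen after its values were seen, was the one member whose RNH+ mean in hrp48 cells exceeded that in LacZ cells by more than 1, with 5.95 against 3.94. Its RNH- means were 6.75 in hrp48 and 6.998 in LacZ cells, so RNH+ minus RNH- was -0.80 and -3.06. In hrp36 cells it had 4.81 with RNH+ and 6.78 with RNH-. With a base mean of 75.5 it was shallow, and its log2 fold change of -0.71 (SE 0.39, adjusted p 0.14, DESeq2) in hrp48 cells was not a call in the authors' deposited table. The overlapping LacZ entry had a log2 fold change of 0.66 (SE 0.41) in the authors' deposited table, with other borders.

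U:5583503-5583912, with an hrp48 excess of 0.40 in the LacZ table, had 12.59 with RNH+ and 11.26 with RNH- in hrp36 cells, 12.39 and 10.88 in hrp48 cells, and 12.01 and 10.48 in LacZ cells. Both knockdowns lay above LacZ cells with RNH+ and with RNH-. It was called higher with RNH+ in LacZ cells at 1.19 (SE 0.46, adjusted p 0.0203, DESeq2) and in hrp48 cells at 1.24 (SE 0.46, adjusted p 0.0208), and had 1.08 (SE 0.46, adjusted p 0.0506) in hrp36 cells, in the authors' deposited tables.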
